A study of Homo sapiens with 6 samples.

Results

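The genes described here are 46 genes of glycolysis, the pentose phosphate pathway and the hypoxia response, taken by symbol from a table of 16197 genes. They comprise 17 glycolytic enzymes, 6 transporters and regulators of glycolytic flux, 3 pentose phosphate enzymes, 3 subunits of the hypoxia-inducible factors (HIFs), 5 proteins that sense oxygen or destroy HIF, and 12 HIF targets. The RNA came from Panc1, an established human pancreatic carcinoma line, grown in DMEM with fetal bovine serum. Of 6 libraries, 3 are labelled BRQ and 3 DMSO, the solvent. The study asks how blocking DHODH changes expression. DHODH works in pyrimidine synthesis and hands electrons to ubiquinone in mitochondria, and BRQ is taken to mean brequinar, which blocks it. Neither dose, exposure time nor oxygen tension is stated in the sources used here. No label says that replicate libraries were grown as separate cultures, and p-values therefore describe library-to-library spread that may be technical. In bulk RNA, fewer cells of a type and less RNA per cell cannot be told apart.

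Glycolysis splits glucose into pyruvate in the cytosol and yields ATP without oxygen, and lactate dehydrogenase then turns pyruvate into lactate. The pentose phosphate pathway branches from glucose 6-phosphate and supplies NADPH and the ribose for nucleotides. HIF is a pair of an oxygen-sensitive alpha subunit (HIF1A or EPAS1) and ARNT. With oxygen present, prolyl hydroxylases (the EGLN proteins) mark the alpha subunit, and VHL then directs its destruction, so that HIF activity is set largely at the level of protein. HIF activates genes of glycolysis, glucose uptake and blood vessel growth, and pancreatic tumours are known for poor oxygen supply and heavy use of glucose.

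Values are FPKM (fragments scaled to gene length and library total). The low values moved in whole steps, whose sizes gave relative depths of 1.02 to 1.03 in BRQ libraries and 0.959 to 0.986 in DMSO libraries. Pearson correlations of log2(FPKM + 1) were 0.995 to 0.997 within groups and 0.968 to 0.974 between them. Of 6 epithelial markers, KRT8, KRT18, KRT19 and EPCAM were all above 80 FPKM in every library, CDH1 was between 4.03 and 6.10 FPKM and KRT7 between 1.13 and 1.39 FPKM. KRT18 (log2 fold change -0.16) and KRT19 (-0.34) fell and EPCAM (0.28) rose. CDKN2A, which this line is generally described as lacking, stood at 31.01 to 34.9 FPKM in BRQ and 44.2 to 49.4 FPKM in DMSO. No test of cell line identity was made, and the name Panc1 is used as the labels give it. Of 8 erythroid markers, 7 were in the table, and their summed level was 88.8, 46.1 and 1.85 FPKM in BRQ libraries 1, 2 and 3, against 0.592 to 2.11 FPKM in DMSO libraries. Nearly all of this was haemoglobin, since ALAS2, SLC4A1, HBD and AHSP were at most 0.23 FPKM in any library. Results below are therefore also given without BRQ libraries 1 and 2 where that changes a call. Of 4 mesenchymal-state markers, VIM, at 865 to 903 FPKM in BRQ and 1849 to 1902 FPKM in DMSO (log2 fold change -1.09), and ZEB1 (-1.29) fell. FN1 did not pass (-0.15, adjusted p = 0.686), and CDH2, at most 0.0193 FPKM in any library, was not tested. Summed levels were 77.6 to 83.8 FPKM in BRQ and 52.04 to 55.5 FPKM in DMSO for 5 fibroblast markers, nearly all from LUM (0.57). They were 156 to 166 FPKM in BRQ and 106 to 112 FPKM in DMSO for 5 immune markers, nearly all from CD68 (0.56), while the immune marker PTPRC was at most 0.153 FPKM and the fibroblast marker DCN at most 0.0712 FPKM. Summed endothelial markers were at most 0.26 FPKM in any library. The part of these marker changes in the results below was not tested.

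Cells given BRQ had more RNA from 9 of 16 tested glycolytic enzymes and 9 of 11 tested HIF targets, with aldolase C, the ankyrin repeat gene ANKRD37 and the peptide hormone gene ADM showing the largest changes. They had less from the glucose transporter SLC2A1, from transketolase (TKT) and from the HIF target CA9, while RNA of HIF1A itself differed little. SLC2A1 is also a HIF target but was counted with the transporters. Of 28 other tested genes known to be induced by hypoxia, 9 rose and 7 fell. These shares of 32.1% and 25% stood near those of all genes tested, given below. The members and lists were chosen with earlier results of these data known. Of 46 members, 43 had a mean of at least 1 FPKM and were tested with limma, and each of these also averaged over 1 FPKM in both groups taken alone. At an adjusted p under 0.05, 25 rose and 7 fell, or 58.1% and 16.3% of those tested. Over all 10689 genes tested, 36.9% were higher and 25.2% were lower in BRQ. The groups did not overlap in 32 of the 43 tested members and in 67.2% of all genes tested. The median log2 fold change was 0.22 over the tested members and 0.06 over all genes. With median-of-ratios scaling these medians were 0.17 and 0.01, and 24 members rose and 7 fell, against 31.7% and 30.1% of all genes. Without BRQ libraries 1 and 2, a fit with 1 BRQ library assumed to vary like the DMSO libraries, the medians were 0.24 and 0.06.

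**Figure D1:**
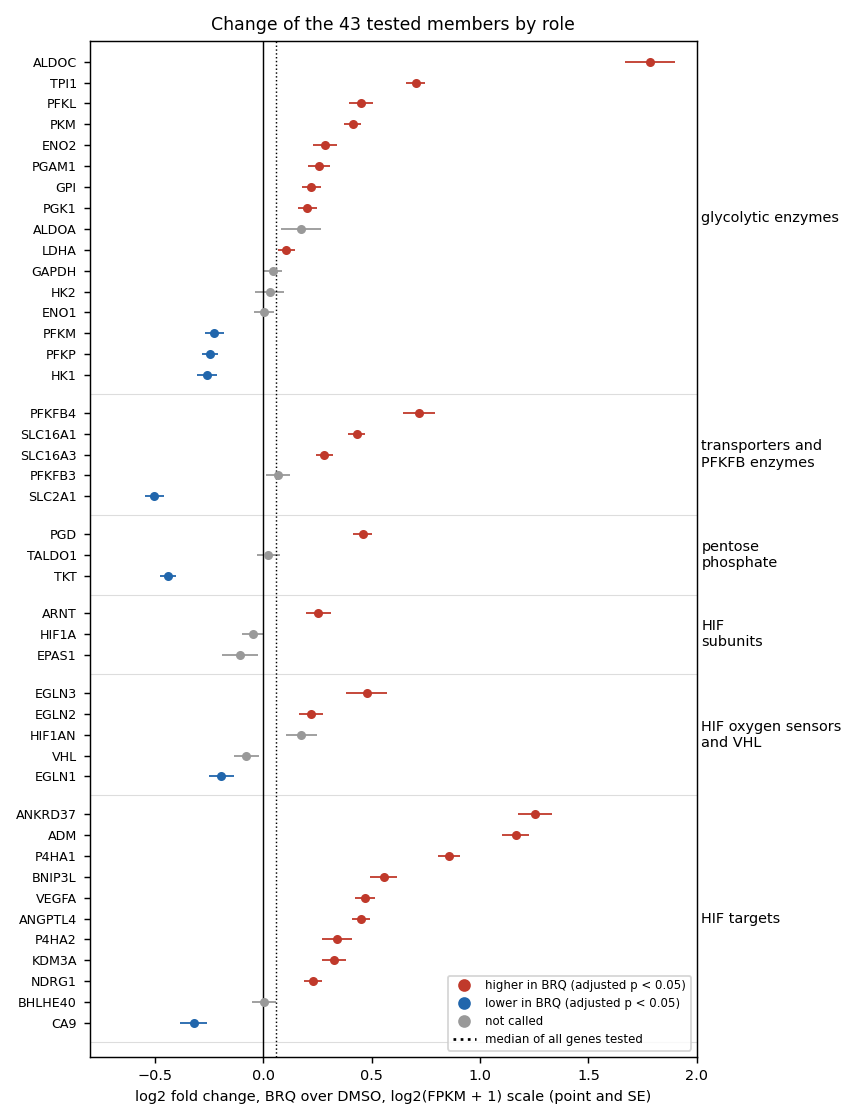
Log2 fold change (BRQ over DMSO, log2(FPKM + 1) scale, limma) of the 43 tested members with its SE, grouped by role, with colours for genes called higher, called lower and not called at an adjusted p of 0.05. The dotted line is the median of all genes tested, 0.06. Of the 11 tested HIF targets 9 are called higher, against 36.9% of all genes tested. Of 28 other tested hypoxia-induced genes, not drawn here, 32.1% are called higher.

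Among the 17 glycolytic enzymes, 9 rose, 3 fell, 4 did not pass and 1 was below the limit for testing. Of those tested, 56.2% rose and 18.8% fell, against 36.9% and 25.2% of all genes tested. The count that rose was 8 under 8 of the 16 alternatives, in each of which LDHA lost its call. The median log2 fold change of those tested was 0.19. Their summed level was 6156 ± 173 FPKM in BRQ and 5443 ± 144 FPKM in DMSO (SD, n = 3 each), which is 1.63% ± 0.0177 in BRQ and 1.501% ± 0.0218 in DMSO of the summed FPKM of the table. The differences between enzymes were larger than this sum shows.

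The largest change was in ALDOC, the aldolase best known from brain, which splits fructose 1,6-bisphosphate. ALDOC lies on chromosome 17 from 28573120 to 28576895 (GRCh38). It had 36.1, 33.6 and 37.2 FPKM in BRQ libraries 1, 2 and 3, against 8.71, 8.25 and 12.4 FPKM in DMSO libraries 1, 2 and 3. The groups did not overlap, as in 67.2% of all genes tested, and the lowest BRQ library stood far above the highest DMSO library. The log2 fold change was 1.78 ± 0.11 (SE, limma adjusted p = 4.79e-07). Over 16 alternative settings, described at the close, it ran from 1.64 to 1.95. Called changes of at least 2-fold on this scale made up 1.96% of tested genes, and ALDOC, ANKRD37 and ADM were the members that reached it.

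ALDOA, the aldolase of most tissues, did not pass. It had 9.22, 10.97 and 12.3 FPKM in BRQ against 10.2, 9.18 and 8.90 FPKM in DMSO, so the groups overlapped (log2 fold change 0.18 ± 0.09, adjusted p = 0.116). It did pass without BRQ library 1 (log2 fold change 0.28) and without BRQ libraries 1 and 2 (0.35), and its adjusted p over all alternatives ran from 0.0102 to 0.594. ALDOC made up 76.7% ± 2.53 of the summed aldolase FPKM in BRQ and 50.5% ± 6.61 in DMSO. The level of ALDOA is uncertain. In GENCODE 29, 53.5% of its exon bases are shared with exons of other genes, and the table also lists a separate gene over the same stretch of chromosome 16, LOC112694756, at 0.999 to 1.30 FPKM in BRQ and 0.680 to 0.951 FPKM in DMSO. How reads on shared bases were assigned was not given in the sources used here.

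TPI1, the triosephosphate isomerase that interconverts the products of aldolase, rose next most among the enzymes. It had 553, 522 and 509 FPKM in BRQ against 332, 324 and 315 FPKM in DMSO. Every BRQ library was above every DMSO library, and the log2 fold change was 0.70 ± 0.04 (adjusted p = 3.69e-07). TPI1 is on chromosome 12 from 6867420 to 6870948, where GENCODE 29 gives only 0.519% of its exon bases to a neighbour, SPSB2.

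PKM, the pyruvate kinase of tumour and muscle cells, had 1312, 1302 and 1289.9 FPKM in BRQ against 1009, 975 and 949.7 FPKM in DMSO. The groups lay far apart relative to their spread, giving a log2 fold change of 0.41 ± 0.04 (adjusted p = 6.41e-06). Gene-level values do not separate its splice forms. GPI (0.22), PGK1 (0.20), PGAM1 (0.26) and ENO2 (0.29), which act between glucose 6-phosphate and phosphoenolpyruvate, rose by smaller log2 fold changes, and the largest adjusted p among them was 0.00168. Each kept its call under all 16 alternatives.

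GAPDH, the glyceraldehyde phosphate dehydrogenase often used as a reference gene, was the most abundant member. It had 2739.6, 2655 and 2552 FPKM in BRQ against 2629, 2599 and 2475 FPKM in DMSO. The groups overlapped and the difference did not pass (log2 fold change 0.04 ± 0.04, adjusted p = 0.402). Its sign was the opposite under both other scalings (-0.01 each), and in an alternative that removed each library's trend with the genomic span of genes, keeping the library median, it passed as lower (-0.09, adjusted p = 0.0113). ENO1, the main enolase, was at 534 ± 27.7 FPKM in BRQ and 532 ± 16.8 FPKM in DMSO (adjusted p = 0.955). GENCODE 29 names 62 pseudogenes of GAPDH, 13 of PGAM1, 6 of LDHA and 4 each of ENO1 and TPI1, and reads that match such copies may not have been counted for the gene.

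LDHA, the lactate dehydrogenase subunit that favours lactate, had 644, 607 and 629 FPKM in BRQ against 596, 575 and 573 FPKM in DMSO. The groups did not overlap, but the gap was narrow, giving a log2 fold change of 0.11 ± 0.04 (adjusted p = 0.0339). The call held under 7 of 16 alternatives and was lost without BRQ libraries 1 and 2 (log2 fold change 0.11, adjusted p = 0.0807), with both other scalings, without a filter, with the span trend removed, and without BRQ library 3, DMSO library 2 or DMSO library 3. The adjusted p ran from 0.0146 to 0.936. LDHB, the other subunit, was at 0.357 to 0.519 FPKM in BRQ and 0.208 to 0.518 FPKM in DMSO and was not tested. LDHA thus carried 99.9% of the summed LDHA and LDHB FPKM in both groups.

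The genes of the committed step, phosphofructokinase, went both ways. Phosphofructokinase, which makes fructose 1,6-bisphosphate, is built from subunits of 3 genes. PFKL, the liver type, rose, with 45.03, 45.97 and 41.02 FPKM in BRQ against 30.3, 32.3 and 33.01 FPKM in DMSO (log2 fold change 0.45 ± 0.05, adjusted p = 3.93e-05). PFKP, the platelet type, fell, with 83.4, 82.5 and 81.9 FPKM in BRQ against 95.96, 97.5 and 100.7 FPKM in DMSO (log2 fold change -0.24 ± 0.04, adjusted p = 2.50e-04). PFKM, the muscle type, also fell, with 27.9, 26.9 and 27.7 FPKM in BRQ against 32.9, 32.3 and 31.7 FPKM in DMSO (log2 fold change -0.22 ± 0.04, adjusted p = 0.00106). The groups did not overlap for any of the 3, which also held for 67.2% of all genes tested. No alternative ended any of these calls. PFKP stayed the largest share, at 53.6% ± 0.688 in BRQ and 60.4% ± 0.402 in DMSO, while PFKL made up 28.6% ± 1.20 in BRQ and 19.7% ± 0.515 in DMSO. The 3 genes summed to 154 ± 3.07 FPKM in BRQ and 162 ± 3.10 FPKM in DMSO.

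Hexokinase traps glucose in the cell. HK1, its widely expressed form, fell, at 19.8 ± 0.254 FPKM in BRQ and 23.9 ± 0.542 FPKM in DMSO (log2 fold change -0.26 ± 0.05, adjusted p = 6.34e-04). HK1 spans 131883 bases, and its log2 fold change was -0.05 or 0.01 once each library's trend with genomic span was removed, which ended the call. HK2, the form raised in many tumours, was at 28.7 ± 2.94 FPKM in BRQ and 27.99 ± 0.323 FPKM in DMSO and did not pass (adjusted p = 0.705). Its BRQ values were 25.3, 30.8 and 29.99 FPKM. Without BRQ library 1 it passed as higher, giving a log2 fold change of 0.11 and an adjusted p of 0.0463, and the adjusted p over all alternatives ran from 0.0463 to 0.98. HK2 made up 56.5% to 60.8% of the pair in BRQ and 53.7% to 54.3% in DMSO.

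**Figure D2:**
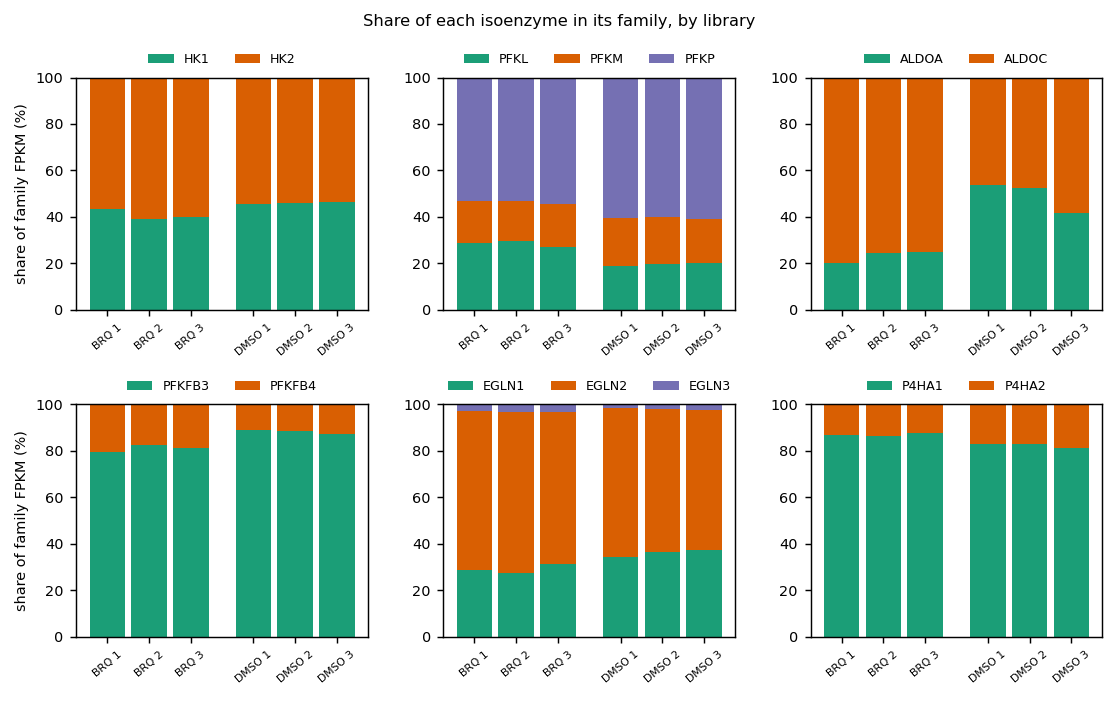
Share of each gene in the summed FPKM of its family (%), 1 bar per library, with the 3 BRQ libraries left of the 3 DMSO libraries. ALDOC takes 76.7% of summed aldolase FPKM in BRQ and 50.5% in DMSO, and PFKL takes 28.6% of phosphofructokinase in BRQ and 19.7% in DMSO. The level of ALDOA is uncertain, since 53.5% of its exon bases are shared with exons of other genes.

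Transport and the control of phosphofructokinase showed 3 genes higher, 1 lower, 1 that did not pass and 1 below the limit for testing. Of those tested, 60% rose and 20% fell, against 36.9% and 25.2% of all genes tested. SLC2A1 (GLUT1), the main glucose importer of these cells and a textbook HIF target, fell. It had 99.8, 110.9 and 106.8 FPKM in BRQ against 148, 150.4 and 152 FPKM in DMSO. No BRQ library came near the DMSO range, and the log2 fold change was -0.50 ± 0.04 (adjusted p = 4.31e-06), with -0.56 to -0.46 over all alternatives. SLC2A3 (GLUT3) stood at 0.616 to 0.94 FPKM in BRQ and 0.621 to 0.897 FPKM in DMSO and was not tested.

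The lactate carriers moved the other way. SLC16A1 (MCT1) averaged 57.4 ± 1.15 FPKM in BRQ and 42.3 ± 0.579 FPKM in DMSO (log2 fold change 0.43 ± 0.04, adjusted p = 6.07e-06). SLC16A3 (MCT4), the exporter of glycolytic cells, averaged 91.8 ± 2.17 FPKM in BRQ and 75.3 ± 2.18 FPKM in DMSO (log2 fold change 0.28 ± 0.04, adjusted p = 1.42e-04). Both rose in every library relative to the DMSO range.

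The PFKFB enzymes make and break the bisphosphate that activates phosphofructokinase. PFKFB4 had 5.70, 5.25 and 5.68 FPKM in BRQ against 2.79, 2.91 and 3.24 FPKM in DMSO. All BRQ libraries were higher, giving a log2 fold change of 0.72 ± 0.07 (adjusted p = 1.30e-05). PFKFB3, the more abundant form, averaged 23.8 ± 1.55 FPKM in BRQ and 22.6 ± 0.139 FPKM in DMSO and did not pass (log2 fold change 0.07 ± 0.05, adjusted p = 0.288). It passed as higher without BRQ library 1, and with the span trend removed at 0.35 or 0.41, with an adjusted p from 2.66e-05 to 0.862 over all alternatives. The share of PFKFB4 in the pair was 18.9% ± 1.52 in BRQ and 11.6% ± 0.793 in DMSO.

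The 3 pentose phosphate members divided. PGD, the phosphogluconate dehydrogenase that yields NADPH and ribulose 5-phosphate, rose. It had 69.8, 71.6 and 67.2 FPKM in BRQ against 52.6, 49.7 and 48.7 FPKM in DMSO (log2 fold change 0.46 ± 0.05, adjusted p = 8.93e-06). TKT, the transketolase that moves carbon between pentoses and glycolytic sugars, fell. It had 98.1, 99.01 and 96.3 FPKM in BRQ against 131, 132 and 136 FPKM in DMSO (log2 fold change -0.44 ± 0.04, adjusted p = 3.25e-06). Both genes had groups that did not overlap, as in 67.2% of all genes tested, and kept their calls under all alternatives. TALDO1, the transaldolase that works beside TKT, averaged 110.2 ± 8.06 FPKM in BRQ and 108 ± 2.64 FPKM in DMSO and did not pass (log2 fold change 0.02, adjusted p = 0.713).

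Of 9 further pentose phosphate and ribose phosphate genes in the table, 8 were tested. Of these, 3 rose, 1 fell and 4 did not pass, with a median log2 fold change of 0.01. The shares of 37.5% higher and 12.5% lower compare with 36.9% and 25.2% of all genes tested. The ribose phosphate pyrophosphokinases PRPS1 (log2 fold change 0.68, adjusted p = 6.30e-07) and PRPS2 (0.38, adjusted p = 5.29e-04) were among those that rose. RPE, an epimerase of the non-oxidative arm, fell to 12.2 ± 0.467 FPKM in BRQ, against 14.2 ± 0.28 FPKM in DMSO (log2 fold change -0.21, adjusted p = 0.0059). TKT and RPE, both of the non-oxidative arm, were thus lower in BRQ. TALDO1 and RPIA (log2 fold change -0.003, adjusted p = 0.971) of the same arm did not pass. In the oxidative arm PGD was higher, while PGLS (-0.06, adjusted p = 0.408) and H6PD (0.03, adjusted p = 0.733) did not pass. The arms as a whole were not tested.

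Of the 3 HIF subunits, 1 rose and 2 did not pass. The shares of 33.3% higher and 0% lower compare with 36.9% and 25.2% of all genes tested. HIF1A had 19.8, 20.3 and 21.1 FPKM in BRQ against 20.1, 21.8 and 21.4 FPKM in DMSO. The groups overlapped, and the log2 fold change was -0.05 ± 0.05 (adjusted p = 0.454), with -0.10 to 0.03 over all alternatives. EPAS1 (HIF2A) averaged 5.46 ± 0.28 FPKM in BRQ and 5.97 ± 0.661 FPKM in DMSO (adjusted p = 0.275). ARNT, the shared partner, rose, with 15.8, 17.3 and 17.03 FPKM in BRQ against 13.1, 14.02 and 14.3 FPKM in DMSO (log2 fold change 0.25 ± 0.06, adjusted p = 0.00292). These are RNA levels, and HIF protein was not measured.

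Of the 5 oxygen sensors and degradation factors, 2 rose, 1 fell and 2 did not pass. The shares of 40% higher and 20% lower compare with 36.9% and 25.2% of all genes tested. EGLN3, a prolyl hydroxylase that is itself a HIF target, was low in both groups and rose. It had 1.80, 1.9999 and 1.92 FPKM in BRQ against 0.907, 1.05 and 1.31 FPKM in DMSO, without overlap (log2 fold change 0.48 ± 0.09, adjusted p = 0.00113). With a pseudocount of 0.1, which compresses low genes less, its log2 fold change was 0.76. EGLN2 had 44.1, 45.3 and 39.5 FPKM in BRQ against 37.04, 36.3 and 36.6 FPKM in DMSO, and rose (log2 fold change 0.22 ± 0.05, adjusted p = 0.00425). It did not pass without BRQ libraries 1 and 2 or with the span trend removed at the library median (adjusted p up to 0.158). In its case 30.6% of its exon bases are shared with other genes on the same strand in GENCODE 29.

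EGLN1 (PHD2), the main HIF hydroxylase, fell, with 18.6, 17.9 and 19.1 FPKM in BRQ against 19.8, 21.5 and 22.6 FPKM in DMSO. The groups were adjacent, giving a log2 fold change of -0.19 ± 0.06 (adjusted p = 0.0131). The call was lost without DMSO library 3, without BRQ libraries 1 and 2 and with the span trend removed at the trend median, and the adjusted p ran from 0.00311 to 0.147. VHL averaged 15.6 ± 1.04 FPKM in BRQ and 16.4 ± 0.41 FPKM in DMSO (adjusted p = 0.277), and passed as lower under 1 alternative, with the span trend removed at the library median (log2 fold change -0.18, adjusted p = 0.0248). HIF1AN (FIH), which blocks HIF transactivation, averaged 8.19 ± 0.642 FPKM in BRQ and 7.12 ± 0.374 FPKM in DMSO and narrowly did not pass (log2 fold change 0.18 ± 0.07, adjusted p = 0.0508). Its adjusted p ran between 0.0128 and 0.229 in the alternatives, 10 of 16 of which also left it uncalled. EGLN1 made up 29.3% ± 2.06 of EGLN RNA in BRQ and 36.1% ± 1.54 in DMSO.

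HIF targets were the role with the highest median, at 0.45. Of 12, 9 rose, 1 fell, 1 did not pass and 1 was below the limit for testing, and the count of 9 and 1 was the same under all 16 alternatives. Among those tested, 81.8% rose and 9.09% fell, against 36.9% and 25.2% of all genes tested. ANKRD37, a small ankyrin repeat protein whose gene is a known HIF target, led. It had 8.87, 8.46 and 9.10 FPKM in BRQ against 3.44, 2.71 and 3.22 FPKM in DMSO. The groups were well apart, giving a log2 fold change of 1.25 ± 0.08 (adjusted p = 4.73e-07). In GENCODE 29, 35.2% of its exon bases overlap UFSP2 on the opposite strand, which averaged 5.74 ± 0.628 FPKM in BRQ and 5.00 ± 0.428 FPKM in DMSO and did not pass (adjusted p = 0.115).

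ADM, which encodes the vasodilator adrenomedullin, had 23.6, 21.5 and 22.8 FPKM in BRQ against 8.92, 9.45 and 10.3 FPKM in DMSO. The lowest BRQ library was above the highest DMSO library by a wide margin, giving a log2 fold change of 1.16 ± 0.06 (adjusted p = 1.86e-07). P4HA1, the catalytic subunit of collagen prolyl hydroxylase, had 43.9, 40.4 and 44.5 FPKM in BRQ against 24.2, 22.7 and 22.8 FPKM in DMSO (log2 fold change 0.86 ± 0.05, adjusted p = 3.50e-07). Its paralog P4HA2 rose less, at 6.48 ± 0.227 FPKM in BRQ and 4.91 ± 0.324 FPKM in DMSO (log2 fold change 0.34 ± 0.07, adjusted p = 0.0014). P4HA1 made up 86.9% ± 0.634 of the pair in BRQ and 82.6% ± 1.04 in DMSO.

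BNIP3L (NIX), a mitophagy receptor also abundant in red cell precursors, had 29.9, 27.03 and 28.98 FPKM in BRQ against 20.3, 17.6 and 19.6 FPKM in DMSO. All BRQ libraries were higher (log2 fold change 0.56 ± 0.06, adjusted p = 2.11e-05), and BRQ library 3, which had little haemoglobin RNA, lay between the other two. Without BRQ libraries 1 and 2 the log2 fold change was 0.57. The part of erythroid RNA in this difference was not tested. Its paralog BNIP3 was listed at 0, 0.113 and 0 FPKM in BRQ and 0.0398, 0 and 0.0197 FPKM in DMSO, where the nonzero values are 6, 2 and 1 steps of the smallest unit. GENCODE 29 names 39 BNIP3 pseudogenes, and whether fragments matching several copies were counted was not given.

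VEGFA, the vascular growth factor, had 46.4, 46.8 and 47.9 FPKM in BRQ against 35.4, 32.5 and 33.00 FPKM in DMSO (log2 fold change 0.47 ± 0.05, adjusted p = 8.85e-06). ANGPTL4, a secreted inhibitor of lipoprotein lipase, rose by a like amount, at 47.1 ± 0.525 FPKM in BRQ and 34.2 ± 0.847 FPKM in DMSO (log2 fold change 0.45, adjusted p = 5.67e-06). The histone demethylase KDM3A (0.33) and NDRG1 (0.23), a stress-responsive gene, rose by smaller log2 fold changes, with adjusted p of 4.83e-04 and 7.44e-04. BHLHE40, a transcriptional repressor, was at 48.4 ± 3.44 FPKM in BRQ and 48.2 ± 1.21 FPKM in DMSO (adjusted p = 0.944).

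CA9, the tumour carbonic anhydrase often used as a marker of hypoxia, fell. It had 14.7, 13.8 and 13.5 FPKM in BRQ against 18.7, 18.1 and 16.4 FPKM in DMSO, with no overlap between the groups (log2 fold change -0.32 ± 0.06, adjusted p = 0.00102). The log2 fold change ran from -0.43 to -0.28 over all alternatives. In GENCODE 29, 38.5% of its exon bases overlap ARHGEF39 on the opposite strand, a gene that rose in BRQ (log2 fold change 0.42, adjusted p = 3.34e-04).

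**Figure D3:**
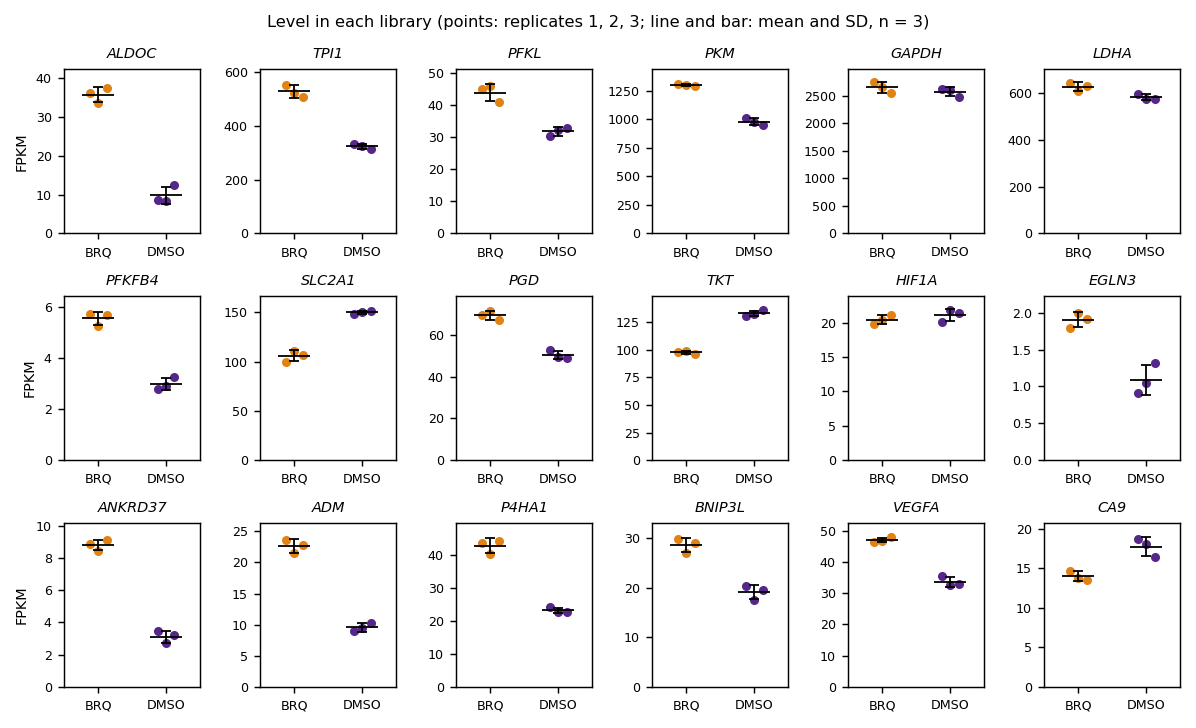
FPKM of 18 members in each library, with BRQ left of DMSO, 3 points per group and a line and bar for the mean and SD (n = 3). ALDOC, ADM and ANKRD37 have the largest fold differences, SLC2A1, TKT and CA9 are lower in BRQ, and the groups of GAPDH and HIF1A overlap.

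HIF binds DNA at a short core, ACGTG or GCGTG, and the promoters of the members were read for it on both strands, from 250 bases before to 50 bases after each annotated start (RefSeq, GRCh38.p14). ACGTG on both strands at a time forms the overlapping palindrome CACGTG, which counts as 2 matches. Of 46 members, 40 had at least 1 window in the table, and SLC2A3, SLC16A1, VHL, VEGFA, BNIP3L and NDRG1 had none. A match was present in 44 of 68 member windows (64.7%), in 61.3% of the windows of all tested genes that had one and in 48.4% of all 35116 windows. By gene, 17 of 21 members that rose, 6 of 7 that fell and 8 of 10 that did not pass had a match in at least 1 window, as did 70.8% of all tested genes with a window. Counted by window, the shares were 21 of 29 (72.4%) for members that rose, 9 of 22 (40.9%) for those that fell and 12 of 15 (80.0%) for those that did not pass. Genes have unequal numbers of windows, and none of these shares was tested. The 250 bases before the start are shown for the largest HIF target changes, for ALDOC and for CA9, which fell, with matches in capitals. ANKRD37 (chr4:185396591-185396840, plus strand), ADM (chr11:10304823-10305072, plus strand), P4HA1 (chr10:73096867-73097116, minus strand), ALDOC (chr17:28576896-28577145, minus strand) and CA9 (chr9:35673678-35673927, plus strand) are written in the sense of the gene.
ANKRD37: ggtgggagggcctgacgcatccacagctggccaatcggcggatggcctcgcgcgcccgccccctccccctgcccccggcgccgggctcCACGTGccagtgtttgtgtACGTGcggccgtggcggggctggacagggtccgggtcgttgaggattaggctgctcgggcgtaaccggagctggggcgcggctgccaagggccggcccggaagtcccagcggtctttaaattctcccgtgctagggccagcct
ADM: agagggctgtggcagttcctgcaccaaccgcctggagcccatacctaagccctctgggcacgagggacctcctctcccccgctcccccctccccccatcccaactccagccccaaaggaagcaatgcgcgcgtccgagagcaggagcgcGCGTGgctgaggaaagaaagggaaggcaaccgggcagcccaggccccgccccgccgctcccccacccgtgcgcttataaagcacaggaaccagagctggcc
P4HA1: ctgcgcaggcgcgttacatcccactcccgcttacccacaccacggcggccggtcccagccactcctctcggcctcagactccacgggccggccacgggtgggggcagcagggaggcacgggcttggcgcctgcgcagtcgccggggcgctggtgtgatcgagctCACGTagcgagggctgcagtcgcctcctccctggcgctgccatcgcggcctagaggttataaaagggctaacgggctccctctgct
ALDOC: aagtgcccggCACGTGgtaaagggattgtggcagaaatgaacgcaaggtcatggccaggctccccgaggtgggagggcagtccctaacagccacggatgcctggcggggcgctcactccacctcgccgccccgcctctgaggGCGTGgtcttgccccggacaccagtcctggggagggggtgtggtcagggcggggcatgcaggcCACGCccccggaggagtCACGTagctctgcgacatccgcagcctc
CA9: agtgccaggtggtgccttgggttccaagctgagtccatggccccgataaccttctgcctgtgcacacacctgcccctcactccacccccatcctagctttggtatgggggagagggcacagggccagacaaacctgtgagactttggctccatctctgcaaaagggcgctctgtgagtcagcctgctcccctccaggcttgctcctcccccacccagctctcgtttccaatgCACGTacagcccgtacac
ANKRD37 held a palindrome that starts 162 bases before its start and a further core at 143 bases. ALDOC held 5 matches, the nearest of them 28 bases before the start. ADM had a single GCGTG at 101 bases, P4HA1 a single match at 86 bases, and CA9 a single match at 18 bases. In SLC2A1 the sole match lay 26 bases after the start, and ARNT, EGLN3, HIF1AN, P4HA2, PGAM1, TALDO1 and TKT had no match in their windows.

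The same roles were read over other genes of these pathways. Of 33 further genes of glycolysis, gluconeogenesis and pyruvate entry, 30 were in the table and 18 were tested. Of these, 12 rose, 1 fell and 5 did not pass, with a median log2 fold change of 0.30. The shares of 66.7% higher and 5.56% lower compare with 36.9% and 25.2% of all genes tested. ENO3, the muscle enolase, averaged 10.1 ± 1.21 FPKM in BRQ and 4.20 ± 0.59 FPKM in DMSO (log2 fold change 1.10 ± 0.10, adjusted p = 4.87e-06). MPC2, of which 22.5% of exon bases overlap DCAF6 on the opposite strand, a subunit of the mitochondrial pyruvate carrier, averaged 21.3 ± 1.74 FPKM in BRQ and 9.97 ± 1.34 FPKM in DMSO (1.03 ± 0.09, adjusted p = 3.18e-06). LDHD, which oxidises D-lactate, averaged 3.96 ± 0.101 FPKM in BRQ and 1.996 ± 0.458 FPKM in DMSO (0.74 ± 0.10, adjusted p = 1.12e-04). HKDC1, a hexokinase relative beside HK1 on chromosome 10, fell to 60.3 ± 1.61 FPKM in BRQ, against 69.3 ± 0.193 FPKM in DMSO (-0.20 ± 0.04, adjusted p = 0.00123).

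Among 42 further genes known to be induced by hypoxia, 28 were tested, and 9 rose, 7 fell and 12 did not pass. These shares of 32.1% and 25% stood near the 36.9% and 25.2% of all genes tested, and the median log2 fold change was 0.02. PPFIA4 (0.69, adjusted p = 3.15e-05), the lipid droplet gene HILPDA (0.59, adjusted p = 1.14e-05) and the transcription factor MAFF (0.41, adjusted p = 6.81e-05) had the largest increases in log2 terms. DDIT4 (REDD1), which restrains mTORC1, fell to 87.9 ± 3.51 FPKM in BRQ, against 133 ± 2.63 FPKM in DMSO (-0.59 ± 0.04, adjusted p = 9.12e-07). The demethylase KDM4C fell to 1.02 ± 0.0538 FPKM in BRQ, against 1.95 ± 0.0926 FPKM in DMSO (-0.55 ± 0.08, adjusted p = 1.59e-04), but the call ended with the span trend removed, at -0.07 or -0.01.

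Of 14 further genes of the HIF machinery, 12 were tested, and 3 rose, 2 fell and 7 did not pass. These shares of 25% and 16.7% compare with 36.9% and 25.2% of all genes tested. The VHL complex subunits ELOB (log2 fold change 0.41, adjusted p = 1.68e-04) and ELOC (0.24, adjusted p = 0.00209) and the scaffold LIMD1 (0.25, adjusted p = 0.0166) all rose. ARNTL (-0.26, adjusted p = 0.0362) and the acetyltransferase CREBBP (-0.24, adjusted p = 0.024) both fell, and neither passed without BRQ library 1, without DMSO library 3, without BRQ libraries 1 and 2, without a filter or with the span trend removed. ARNTL was also lost without DMSO library 1. With the trend removed the sign for CREBBP turned, to 0.01 or 0.07. LIMD1 did not pass with TPM scaling, without BRQ library 2 or without BRQ libraries 1 and 2. The adjusted p over all alternatives ran from 0.0179 to 0.778 for ARNTL, from 0.00926 to 0.916 for CREBBP and from 5.49e-04 to 0.138 for LIMD1.

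**Figure D4:**
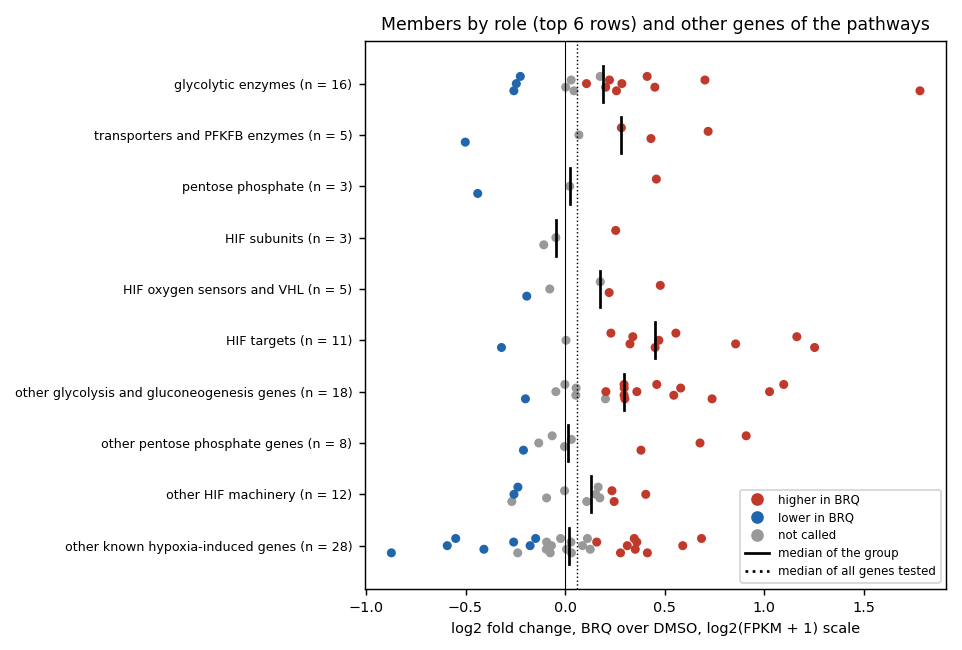
Log2 fold change (BRQ over DMSO, log2(FPKM + 1) scale) of each tested gene, with the members by role in the upper rows and the other pathway genes below, and a bar for the median of each row. The medians are 0.45 for the HIF targets and 0.02 for the other hypoxia-induced genes, and the dotted line is the median of all genes tested, 0.06.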

How the data were processed

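The 6 RNA-seq libraries of Panc1 cells, 3 BRQ and 3 DMSO, were grouped by sample label. Total RNA was extracted with TRIzol, per the labels' protocols. The submitters' processing notes name fastp, HTSeq and the build hg38. Aligner, annotation, strand and gene lengths are not given in the sources used here. As expression values, the authors deposited 1 table of FPKM values per gene and library, and no counts.

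Absolute depth is not stated in the table. Relative depth was read from 1459 low genes (no value of 0.3 FPKM or more, above 0 in 5 or 6 libraries), of which 98.4% moved in whole steps of a unit within 0.02 of a step.

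The 10689 genes averaging 1 FPKM or more were compared with limma (version 3.58.1, R 4.3.3), using log2 of FPKM plus a pseudocount of 1, empirical Bayes moderation with an intensity trend and treatment as the sole term. Tests were two-sided, with Benjamini-Hochberg adjustment over all 10689 genes and a threshold of 0.05. Fold changes are BRQ over DMSO on this scale, which understates changes of low genes. Shares, sums and lists are described with no test. No exact permutation test was used, since 3 against 3 libraries reach a smallest two-sided p of 0.1.

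The members, lists and rule for named genes were chosen with earlier results of these data known. By that rule each library is given for the largest changes of each role and for fixed reference genes, and up to 3 genes in each direction are named from each other list. Some genes that the rule names are not reported here. ALDOA, HK2, BNIP3 and RPE values and neighbouring genes were added after values were seen. Positions are from RefSeq (GRCh38.p14), matched by Entrez number for 46 of 46 members, and exon overlaps from GENCODE 29. Figures were drawn with matplotlib 3.10.9.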

Additional observations from a re-analysis of the deposited data

How the results depend on the processing

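The 16 alternatives changed the pseudocount (to 0.1), the filter (none, or a mean of 5 FPKM), the scaling (median-of-ratios or TPM) or the model (replicate block, robust variance). Others were removal of each library's trend with genomic span under 2 centrings (keeping the library median or the trend median), leaving out BRQ libraries 1 and 2, and leaving out each library in turn. Of the 43 tested members, 28 kept their direction and side of the threshold under all that gave a value, and 15 did not under at least 1. The cause was not tested. FPKM without counts limits what can be said of precision at low levels.

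Leaving out each library in turn gave 24 to 29 members higher and 6 to 7 lower, 9 HIF targets higher, 8 to 11 glycolytic enzymes higher, 2 to 3 oxygen sensors higher and 0 to 1 lower, and 0 to 3 of the other HIF machinery genes lower. The share of higher genes among all those called was 59.4%, and it was 51.3% with median-of-ratios scaling, 51.7% with TPM scaling and 70.1% (4596 higher and 1962 lower) with the trend median kept, which also moved the median of all genes to 0.12. For the members it was 78.1%, 77.4%, 77.4% and 83.3%. Deviations from the group mean correlated weakly between same-numbered libraries (r = 0.14, 0.01 and 0.06). Differently numbered libraries gave r from -0.14 to 0.10. With 3 libraries per group, such values cannot decide whether the numbers pair the samples. With the replicate block 26 members rose and 7 fell, against 4030 and 2769 of all genes.

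Oxygen sensors called higher numbered 1 without BRQ libraries 1 and 2 and 1 with the library median kept. Those called lower numbered 0, 2 and 0 without BRQ libraries 1 and 2, with the library median kept and with the trend median kept. Other glycolysis genes called lower numbered 2 without a filter. Other pentose phosphate genes called lower numbered 2 with either scaling and 3 with the library median kept. Other HIF machinery genes called higher numbered 5 with the trend median kept, and those called lower 0 without a filter, 4 with median-of-ratios scaling, 0 without BRQ libraries 1 and 2 and 0 with the trend median kept. Other hypoxia-induced genes called lower numbered 4 with the trend median kept.

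Log2 fold changes near 0 changed sign. With median-of-ratios and TPM scaling they were -0.0259 and -0.0261 for HK2, -0.0136 and -0.0132 for GAPDH, -0.0551 and -0.0547 for ENO1, -0.0344 and -0.0342 for TALDO1, and -0.0526 and -0.0528 for BHLHE40. Without BRQ libraries 1 and 2 they were -0.00823 for GAPDH, -0.0749 for ENO1 and -0.0911 for TALDO1. With the library median kept they were -0.0938 for GAPDH, -0.0896 for ENO1, -0.0699 for TALDO1, 0.0114 for EPAS1, -0.109 for BHLHE40 and 0.00896 for CREBBP. With the trend median kept they were 0.0103 for HK1, -0.0354 for GAPDH, -0.0313 for ENO1, -0.0116 for TALDO1, 0.0325 for HIF1A, 0.0698 for EPAS1, -0.0508 for BHLHE40 and 0.0673 for CREBBP. Leaving out single libraries gave -0.0206 to 0.115 for HK2, -0.0325 to 0.0422 for ENO1, -0.0234 to 0.0807 for TALDO1 and -0.0521 to 0.0366 for BHLHE40.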

Other observations

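The deposited table also carries KEGG pathway labels. These sets share genes with the lists above, and they were counted after values were seen. Of 44 tested genes labelled KEGG glycolysis and gluconeogenesis, 27 were higher (61.4%) and 5 lower (11.4%) in BRQ. Their median log2 fold change was 0.21. Of 22 tested genes labelled KEGG pentose phosphate pathway, 11 were higher (50%) and 4 lower (18.2%), with a median of 0.19. Of 76 tested genes labelled KEGG HIF-1 signaling pathway, 28 were higher (36.8%) and 23 lower (30.3%), with a median of 0.04. Over all genes tested 36.9% were higher and 25.2% lower, with a median of 0.06. With median-of-ratios scaling the counts were 23 and 5, 9 and 4, and 25 and 32 in the same order. Those were 52.3% and 11.4%, 40.9% and 18.2%, and 32.9% and 42.1%, against 31.7% and 30.1% of all genes.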
